A study of Mus musculus with 8 samples.

Results

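The 10 genes described here mark astrocytes or their reaction to injury. A group of 6 identity genes (*Aqp4*, *S100b*, *Slc1a2*, *Slc1a3*, *Aldh1l1* and *Gja1*) marks resting as well as reactive astrocytes, and a group of 4 reactive genes (*Gfap*, *Vim*, *Serpina3n* and *Lcn2*) is known for rising in gliosis. They were chosen by name from the 46078 Ensembl gene identifiers counted in every library, and all 10 were among the 14736 genes with enough counts to be tested. Expression was measured by bulk RNA-Seq of infarcts from wild-type C57BL/6J mice aged 18 months, male according to the methods of the study. Every mouse had DH stroke, a model that combines distal occlusion of the middle cerebral artery with a period of hypoxia. From 1 week after stroke the mice were injected under the skin 3 times per week for 6 weeks, with PBS in the vehicle group (n = 4) or with 4 g/kg of 2-hydroxypropyl-β-cyclodextrin in the HPβCD group (n = 4). HPβCD is a ring of sugar units that holds lipids such as cholesterol in its cavity. Tissue was collected 7 weeks after the stroke, so both groups carried a chronic infarct, and no uninjured tissue was analysed here.

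Astrocytes clear glutamate and potassium from around neurons, are coupled to each other by gap junctions and surround vessels with endfeet rich in water channels. After injury they assemble more intermediate filament protein, secrete acute-phase proteins and form a border around the lesion, while the core fills with macrophages and fibroblasts. A dissected infarct can therefore hold both core tissue, in which astrocytes are scarce, and the astrocyte border. Levels here are shares of the counts of a library. A lower level of an astrocyte gene can come from fewer astrocytes, less RNA per astrocyte or more RNA from other cells. Bulk counts cannot tell these apart.

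Infarcts were recognised by eye and excised by hand, so the amount of adjoining tissue in each was not fixed. The libraries held 16.6 M to 32.9 M gene counts, and the lowest count of any of the 10 genes in a library was 233. Levels are given as CPM, counts per 1e+06 counts of the TMM-scaled library total, in the order of replicates 1 to 4. The labels number the replicates but do not say whether a library came from a single mouse, so p-values measure the spread between these libraries. They name no sequencing batch. Fibroblast markers summed to 2348 to 6025 CPM in vehicle infarcts and 8657 to 9270 CPM in HPβCD infarcts, and foamy macrophage markers to 5554 to 10422 CPM and 12844 to 19838 CPM. Neuron markers summed to 5975 CPM in vehicle infarct 3 and 947 CPM in vehicle infarct 1, and to 8.58 to 84.0 CPM in the other 6 libraries. The 2 vehicle libraries with neuron transcripts thus stood apart, and the fold changes of the members and the medians of the lists are given with and without them. The fits without them compare only vehicle infarcts 2 and 4 with all HPβCD infarcts. Fewer libraries stand behind their p-values, so a call lost there can also come from the smaller group.

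The first question was whether HPβCD-treated infarcts differed from vehicle infarcts in astrocyte transcripts. All 6 identity genes had lower mean levels in HPβCD infarcts, from 9.05-fold for *Slc1a2* to 1.19-fold for *Gja1*. Of the reactive genes, *Gfap*, *Serpina3n* and *Lcn2* were lower and *Vim* was higher. None of the 10 passed an adjusted p of 0.05 with the quasi-likelihood test of edgeR, Benjamini-Hochberg adjusted over all genes, by which 1.95% of all tested genes differed and 0.774% were lower in HPβCD infarcts. An unadjusted p under 0.05 was reached by 5 members, all of them identity genes and all lower. Over all tested genes, 16.0% were lower at that unadjusted level. DESeq2, the tool used by the study, called 4 of the 6 identity genes lower (*Aqp4*, *Slc1a2*, *Slc1a3* and *Aldh1l1*) and none of the 4 reactive genes, against 11.1% of all genes it tested.

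**Figure D1:**
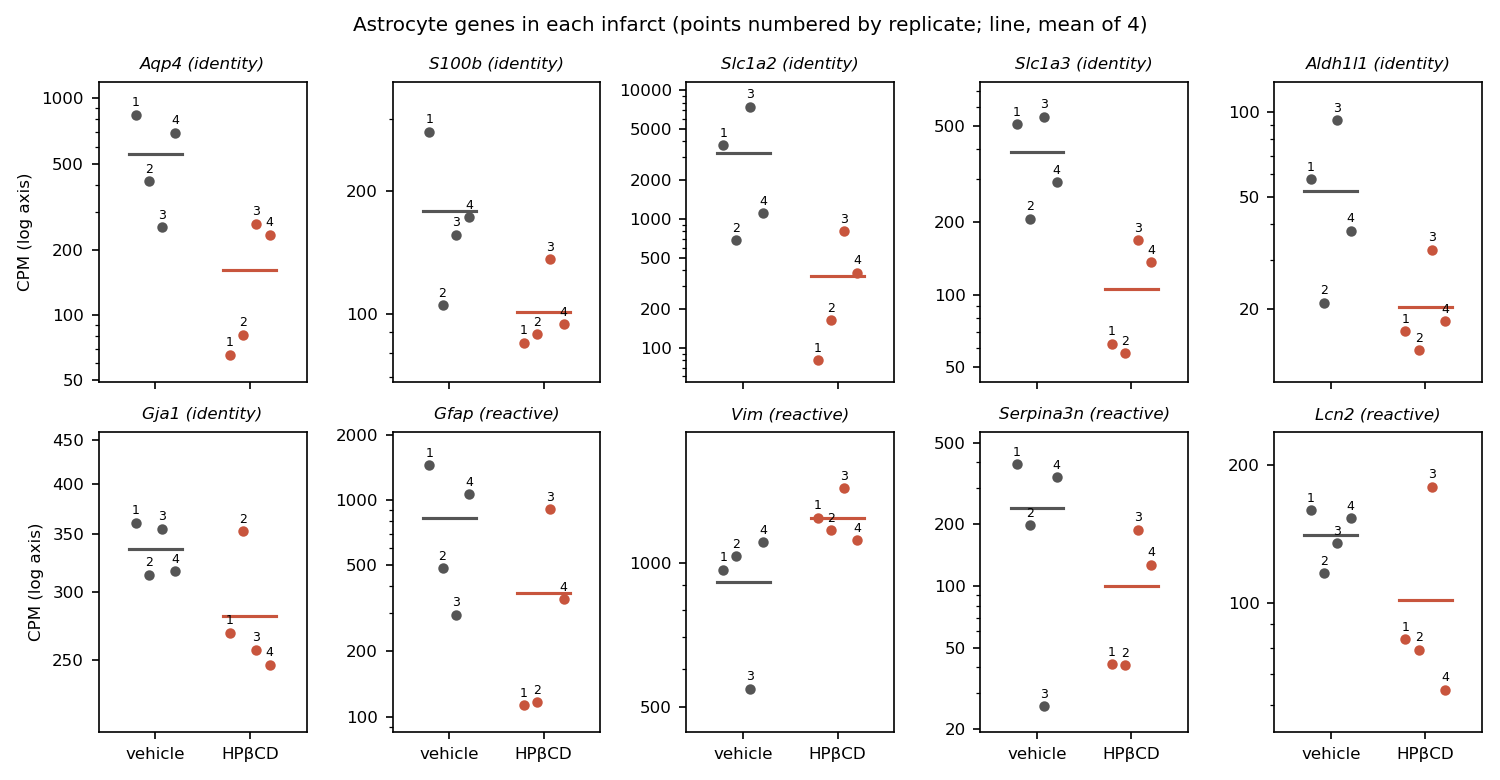
Level of each of the 10 genes in CPM (log axis) in 4 vehicle and 4 HPβCD infarcts, each point numbered by replicate and each line the mean of a group. The groups are separate for *Slc1a3* (206 CPM or more against 168 CPM or less) and, narrowly, for *Vim*, and overlap for the other 8 genes.

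With all 8 libraries the glutamate transporters had the largest log2 fold changes of the 10 genes, but without vehicle infarcts 1 and 3 those of *Aqp4* and *Serpina3n* were larger. *Slc1a2* (GLT-1, the main glutamate uptake carrier of the forebrain; ENSMUSG00000005089, chromosome 2, 102658659 to 102790784, plus strand of GRCm38) was at 3755, 685, 7431 and 1113 CPM in vehicle infarcts and 80.3, 165, 807 and 383 CPM in HPβCD infarcts. Vehicle infarcts 1 and 3, the libraries with neuron transcripts, were well above vehicle infarcts 2 and 4, and HPβCD infarct 3 exceeded vehicle infarct 2, so the groups overlapped. Its log2 change was -3.18 (SE 1.00, edgeR adjusted p = 0.0985, DESeq2 adjusted p = 0.00115). Without vehicle infarcts 1 and 3 it was -1.31, with an edgeR adjusted p of 0.465.

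*Slc1a3* (GLAST, the second astrocytic glutamate carrier; ENSMUSG00000005360, chromosome 15, 8634124 to 8710764, minus strand) was at 507, 206, 546 and 293 CPM in vehicle infarcts. In HPβCD infarcts it was at 62.6, 57.2, 168 and 136 CPM. It was the only identity gene whose groups did not overlap, which held, in the lower direction, for 8.03% of all tested genes. Its log2 fold change of -1.87 (SE 0.45) had the smallest edgeR adjusted p of the 10 genes, 0.0641, and a DESeq2 adjusted p of 9.52e-04. Without vehicle infarcts 1 and 3 it was -1.22 and was called by neither edgeR (adjusted p = 0.211) nor DESeq2 (0.177). Of the 8 fits that each left out 1 library, it passed edgeR only in the one without vehicle infarct 2, the lowest of its group (log2 fold change -2.07, adjusted p = 0.0474). Over all genes, that fit called 556. The fits without vehicle infarct 1, vehicle infarct 4, HPβCD infarct 2 or HPβCD infarct 3 called 0 genes of any kind.

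*Aldh1l1*, a folate enzyme used as a general astrocyte marker (ENSMUSG00000030088, chromosome 6, 90486427 to 90600203, plus strand), was low throughout. It stood at 57.7, 21.1, 93.2 and 38.0 CPM in vehicle infarcts and 16.7, 14.3, 32.5 and 18.2 CPM in HPβCD infarcts. As for *Slc1a2*, the highest library was vehicle infarct 3, and only HPβCD infarct 3 reached into the vehicle range. Its log2 change was -1.36 (SE 0.46, edgeR adjusted p = 0.107), and -0.51 without vehicle infarcts 1 and 3. Other genes on the same strand covered 2.3% of its exon length, and genes on the opposite strand 11%.

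*Aqp4*, the water channel of astrocyte endfeet (ENSMUSG00000024411, chromosome 18, 15389496 to 15410982, minus strand), followed another order among the vehicle infarcts, with 843, 414, 255 and 695 CPM. HPβCD infarcts held 65.7, 81.1, 264 and 235 CPM. Vehicle infarct 3, the highest for the transporters, was the lowest of its group here and lay below HPβCD infarct 3. Its log2 change was -1.77 (SE 0.56, edgeR adjusted p = 0.0966, DESeq2 adjusted p = 0.00914). It was also -1.77 without vehicle infarcts 1 and 3, although the edgeR adjusted p was then 0.202 and no call was made by DESeq2 either (0.104).

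*S100b*, a calcium-binding protein also made by some oligodendrocyte lineage cells (ENSMUSG00000033208, chromosome 10, 76253853 to 76261159, plus strand), was at 279, 105, 156 and 172 CPM in vehicle infarcts. The HPβCD infarcts held 84.9, 89.0, 136 and 94.3 CPM, so that only replicate 3 entered the vehicle range. The difference was -0.82 in log2 units (SE 0.29, edgeR adjusted p = 0.117), and -0.44 without vehicle infarcts 1 and 3.

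*Gja1*, the gap junction protein connexin 43, which fibroblasts and endothelial cells also make (ENSMUSG00000050953, chromosome 10, 56377330 to 56402513, plus strand), varied least. Vehicle infarcts held 361, 314, 355 and 317 CPM, and HPβCD infarcts 269, 353, 257 and 247 CPM. HPβCD infarct 2 lay among the vehicle infarcts and the other HPβCD infarcts lay below them. The groups differed by -0.26 in log2 units (SE 0.15, edgeR adjusted p = 0.313), and by -0.15 without vehicle infarcts 1 and 3. Its highest vehicle library was 1.15-fold above the lowest, compared with 10.9-fold for *Slc1a2*.

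Among the reactive genes, *Gfap*, the astrocyte intermediate filament protein (ENSMUSG00000020932, chromosome 11, 102887336 to 102900912, minus strand), was at 1451, 485, 296 and 1066 CPM in vehicle infarcts and 113, 117, 907 and 349 CPM in HPβCD infarcts. The groups overlapped widely, since HPβCD infarct 3 exceeded vehicle infarcts 2 and 3. Its log2 change was -1.15 (SE 0.80, edgeR adjusted p = 0.395). It was -2.09 without HPβCD infarct 3 and -0.72 without vehicle infarct 1, and neither value passed the edgeR test (adjusted p = 0.143 and 0.680). Each of these fits called 0 genes of any kind. Without vehicle infarcts 1 and 3 the log2 change of *Gfap* was -1.04.

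*Serpina3n*, a secreted protease inhibitor of the acute-phase response (ENSMUSG00000021091, chromosome 12, 104406729 to 104414329, plus strand), was at 393, 198, 26.0 and 340 CPM in vehicle infarcts and 41.4, 40.9, 188 and 127 CPM in HPβCD infarcts. The lowest library of all 8 was vehicle infarct 3. Its values spanned 15.1-fold within the vehicle group, more than the 2.41-fold difference of the group means (log2 fold change -1.27, SE 0.83; edgeR adjusted p = 0.366). The fold change was -1.42 without vehicle infarcts 1 and 3. *Serpina3n* has close paralogs on the same chromosome. The 13 other *Serpina3* genes in the tables summed to 12.1 to 66.8 CPM per library, most of it *Serpina3g*, and reads that fit several of these genes equally were not counted by the authors' method.

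*Lcn2*, an iron-siderophore carrier released by reactive astrocytes and also by neutrophils (ENSMUSG00000026822, chromosome 2, 32384633 to 32388252, minus strand), was even among vehicle infarcts, at 159, 116, 135 and 153 CPM. In HPβCD infarcts it was at 83.4, 79.2, 179 and 64.8 CPM. Replicates 1, 2 and 4 lay below every vehicle infarct, whereas replicate 3 was the highest of all 8. The groups differed by -0.47 in log2 units (SE 0.31, edgeR adjusted p = 0.358), -0.89 without HPβCD infarct 3 (adjusted p = 0.0899), and -0.38 without vehicle infarcts 1 and 3. Neutrophil markers were low, with a sum of 12.1 to 31.1 CPM in vehicle and 12.6 to 48.2 CPM in HPβCD infarcts. That sum was also highest in HPβCD infarct 3, and 5 of the 9 markers, among them *Mpo* and *Elane*, had too few counts to be tested. The part of neutrophils in the *Lcn2* values was not tested.

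*Vim*, an intermediate filament gene shared by astrocytes, fibroblasts, macrophages and endothelium (ENSMUSG00000026728, chromosome 2, 13573927 to 13582826, plus strand), was the only member with a higher level in HPβCD infarcts. Vehicle infarcts held 969, 1033, 547 and 1106 CPM and HPβCD infarcts 1245, 1173, 1432 and 1117 CPM. The groups did not overlap, as for 8.77% of all tested genes in the higher direction, but the gap was 1106 against 1117 CPM. Its log2 change was 0.44 (SE 0.23, edgeR adjusted p = 0.253), and 0.23 without vehicle infarcts 1 and 3. Vehicle infarct 3, the lowest for *Vim*, was also the lowest for summed fibroblast markers, at 2348 CPM, and all HPβCD infarcts exceeded all vehicle infarcts in those markers too. The part of fibroblasts in the *Vim* values was not tested.

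**Figure D2:**
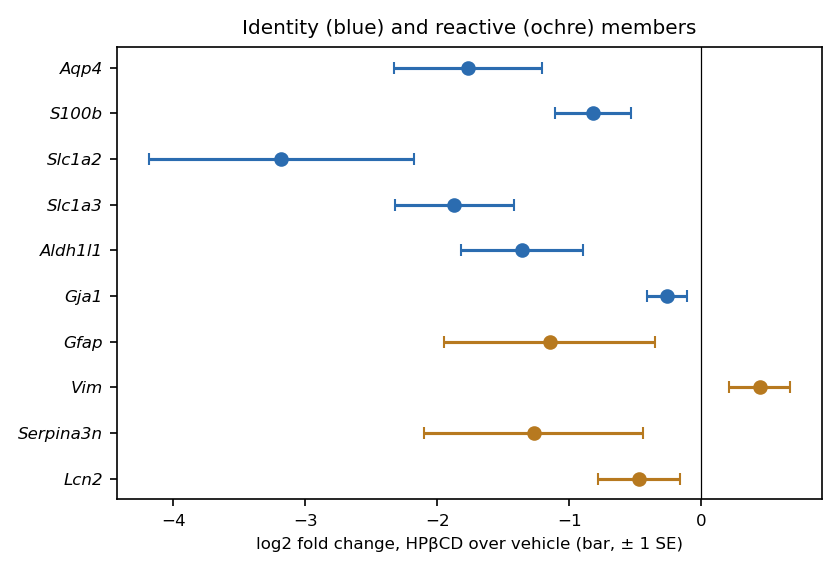
Log2 fold change of HPβCD over vehicle for each member (point) with 1 SE on each side (bar), from edgeR with 4 infarcts per group, identity genes in blue and reactive genes in ochre. The values run from -3.18 for *Slc1a2* to 0.44 for *Vim*, and none passed an adjusted p of 0.05.

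Per kb of exon length, which allows genes to be compared, *Slc1a2* had the highest mean in vehicle infarcts (247 ± 236 CPM per kb, SD, n = 4), with *Gfap* at 195 ± 126 and *Vim* at 193 ± 52.9 CPM per kb, and the spreads overlapped. That rank rested on vehicle infarct 3, where *Slc1a2* reached 566 CPM per kb. Without it the means were 141 CPM per kb for *Slc1a2*, 237 for *Gfap* and 218 for *Vim*. In HPβCD infarcts *Vim* led at 262 ± 29.0 CPM per kb, and was first in each of the 4 libraries. *Gfap* was at 88.1 ± 88.6, *S100b* at 68.1 ± 15.8 and *Slc1a2* at 27.3 ± 24.7 CPM per kb, and without HPβCD infarct 3 *Gfap* (45.8 CPM per kb) was below *S100b* (60.2 CPM per kb). *Aldh1l1* was the least abundant in both groups, at 11.6 ± 6.86 and 4.52 ± 1.82 CPM per kb.

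Identity and reactive genes were then compared with each other. The median log2 fold change was -1.57 for the 6 identity genes and -0.81 for the 4 reactive genes, beside -0.05 for all tested genes. The difference between those medians was -0.76. Without vehicle infarcts 1 and 3 the medians were -0.86 for identity and -0.71 for reactive genes, and their difference was -0.15. The difference was -0.33 without vehicle infarct 3 alone. As a score per infarct (the mean of log2 CPM centred on each gene), identity genes had 0.76 ± 0.60 in vehicle and -0.76 ± 0.63 in HPβCD infarcts (SD, n = 4 each), and reactive genes 0.32 ± 0.83 and -0.32 ± 0.78. In vehicle infarct 3 the identity score was 1.17 while the reactive score was -0.83, a gap of 2.0. In the other 7 infarcts the identity score minus the reactive score lay between -0.74 and 0.31.

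**Figure D3:**
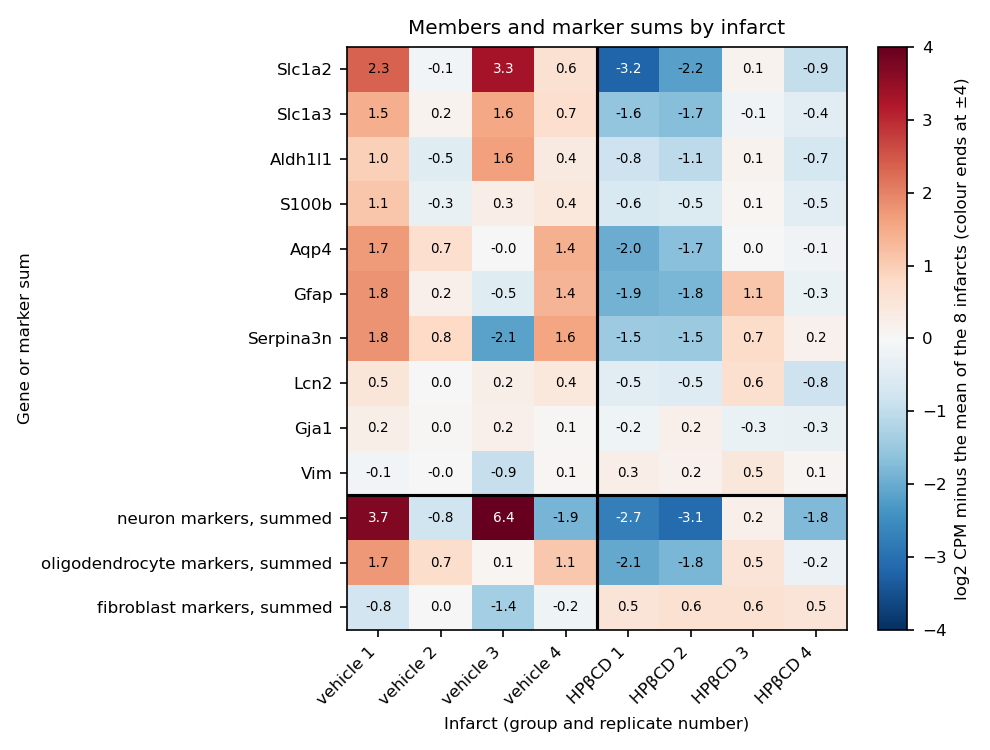
Log2 CPM of each member, and of the summed neuron, oligodendrocyte and fibroblast markers, in each of the 8 infarcts after subtraction of the mean of the row; red is above and blue below that mean. *Slc1a2*, *Slc1a3* and *Aldh1l1* are highest in vehicle infarct 3, where the neuron sum is highest, and *Gfap*, *Aqp4* and *Serpina3n* are highest in vehicle infarct 1, followed by vehicle infarct 4.

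The members thus showed different orders across the libraries. *Slc1a2*, *Slc1a3* and *Aldh1l1* were highest in vehicle infarct 3 and next in vehicle infarct 1, as were the neuron markers. Pearson's r of log2 CPM over the 8 libraries, given as a description of infarcts that share a treatment split, was 0.97 between *Slc1a2* and *Slc1a3* and 0.95 between *Slc1a2* and *Aldh1l1*. *Gfap*, *Aqp4* and *Serpina3n* were highest in vehicle infarcts 1 and 4, with r of 0.94 between *Gfap* and *Aqp4* and 0.88 between *Gfap* and *Serpina3n*. The sets were not separate, since r between them ranged from 0.11 for *Aldh1l1* and *Serpina3n* to 0.84 for *Slc1a3* and *Aqp4*, and was 0.65 for *Slc1a2* and *Gfap*. *Gfap* and *Vim* had an r of 0.02. Summed oligodendrocyte markers were at 5190, 2587, 1654 and 3346 CPM in vehicle infarcts and 378, 446, 2243 and 1336 CPM in HPβCD infarcts, the same order within the vehicle group as *Gfap* and *Serpina3n*. The part of adjoining brain tissue in these values was not tested.

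HPβCD infarct 3 was the highest of its group in 9 of the 10 genes, all except *Gja1*. The neuron sum of this infarct (84.0 CPM) and oligodendrocyte sum (2243 CPM) were also the highest of the HPβCD group, as was its foamy macrophage sum (19838 CPM).

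Ratios within a library do not depend on scaling. *Gfap* per *Slc1a2* was 0.386, 0.708, 0.0399 and 0.958 in vehicle infarcts and 1.40, 0.711, 1.12 and 0.912 in HPβCD infarcts. It was lowest in vehicle infarcts 3 and 1, the libraries with neuron transcripts, and vehicle infarcts 2 and 4 lay near or within the HPβCD range. *Slc1a3* per *Gja1*, both identity genes, was 1.41, 0.657, 1.54 and 0.924 in vehicle infarcts and 0.233, 0.162, 0.655 and 0.551 in HPβCD infarcts, with almost no gap between vehicle infarct 2 and HPβCD infarct 3. *Gfap* per *Vim*, the pair of intermediate filament genes, was 1.5, 0.469, 0.542 and 0.964 in vehicle infarcts and 0.0905, 0.100, 0.633 and 0.313 in HPβCD infarcts. *Gfap* per *Aqp4* was between 1.16 and 1.72 in 7 infarcts and 3.44 in HPβCD infarct 3.

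The start regions of some members are shown because *Gfap* and *Serpina3n*, and likewise *Slc1a2* and *Slc1a3*, moved together across the infarcts. Reactive gliosis is known to run through the factors STAT3 and NF-κB, so each promoter was searched on both strands for TTCNNNGAA (STAT), GGNNTTTCC (NF-κB) and TATAAA (the box bound by TBP). The search covered 300 bases around a RefSeq start of each gene on GRCm38.p6. The table of promoters matched 9 of the 10 members, all except *Aqp4*. Of all 32851 promoters in it, 8.30% held the STAT letters, 5.82% the NF-κB letters and 13.6% the TATA letters. The sequences below run 5′ to 3′ from 250 bases before the start to 30 bases from it, on the strand of the gene, and capitals mark matches.
Gfap (chr11:102897171-102897450, minus strand): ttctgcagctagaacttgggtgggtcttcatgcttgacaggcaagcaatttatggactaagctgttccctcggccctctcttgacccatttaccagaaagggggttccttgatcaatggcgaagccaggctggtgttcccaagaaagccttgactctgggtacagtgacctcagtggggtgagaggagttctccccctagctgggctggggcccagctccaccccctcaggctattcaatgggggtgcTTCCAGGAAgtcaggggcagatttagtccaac
Serpina3n (chr12:104406458-104406737, plus strand): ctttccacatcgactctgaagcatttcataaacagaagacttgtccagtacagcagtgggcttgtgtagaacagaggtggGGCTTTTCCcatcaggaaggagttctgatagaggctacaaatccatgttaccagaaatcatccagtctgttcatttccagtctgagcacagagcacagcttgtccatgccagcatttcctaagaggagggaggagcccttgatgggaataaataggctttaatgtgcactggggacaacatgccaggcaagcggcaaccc
Slc1a3 (chr15:8710778-8711057, minus strand): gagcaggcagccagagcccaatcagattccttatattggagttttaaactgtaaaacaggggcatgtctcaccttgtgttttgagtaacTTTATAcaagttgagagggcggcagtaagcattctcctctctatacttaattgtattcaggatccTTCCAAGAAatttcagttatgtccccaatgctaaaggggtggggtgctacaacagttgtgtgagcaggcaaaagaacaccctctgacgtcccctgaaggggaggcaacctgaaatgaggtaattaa
Slc1a2 (chr2:102706188-102706467, plus strand): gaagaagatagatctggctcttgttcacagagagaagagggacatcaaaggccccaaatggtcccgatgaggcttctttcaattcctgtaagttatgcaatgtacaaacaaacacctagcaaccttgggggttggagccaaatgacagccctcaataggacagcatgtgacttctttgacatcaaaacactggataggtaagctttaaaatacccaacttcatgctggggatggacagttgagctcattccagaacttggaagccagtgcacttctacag

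*Gfap* held 1 STAT match that spans its annotated start, and *Serpina3n* held 1 NF-κB match and no STAT match. *Slc1a3* held 1 STAT match and 1 TATA match on the opposite strand. *Slc1a2*, which among the members followed *Slc1a3* most closely, held none in its window. *Vim* held 1 NF-κB and 1 TATA match. *S100b*, *Aldh1l1*, *Gja1* and *Lcn2* held none. The windows of *Slc1a2*, *Aldh1l1*, *Gfap*, *Vim* and *Lcn2* lay inside the gene spans given above, so the 5′ ends of those spans were not searched. The matches are letters within a window and say nothing about binding.

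The next question was whether other astrocyte genes varied in the same manner. Of 28 further identity genes, 27 were tested (all except *Slc7a10*), and 25 had lower and 2 higher levels in HPβCD infarcts, with a median log2 fold change of -1.62. By edgeR, 1 passed, and it was lower, as were 0.774% of all tested genes. This was *Fgfr3*, a growth factor receptor of astrocyte precursors. It was at 61.8, 31.4, 138 and 37.5 CPM in vehicle infarcts and 9.19, 9.13, 16.7 and 12.3 CPM in HPβCD infarcts, and it fell by 2.5 on the log2 scale (edgeR adjusted p = 0.0499, SE 0.49). Genes on the opposite strand cover 13.9% of its exon length. In all, 21 were lower at an unadjusted p under 0.05, DESeq2 called 17 lower, and the groups did not overlap in 10 (16.0%, 11.1% and 8.03% over all genes). The median was -0.85 without vehicle infarcts 1 and 3. The number called by edgeR was 6 without vehicle infarct 2, 2 without vehicle infarct 3, and 0 without any one of vehicle infarcts 1 and 4 and HPβCD infarcts 1 to 4. Over all genes, edgeR called 556 without vehicle infarct 2 and 629 without vehicle infarct 3. It called 353 without HPβCD infarct 4 and 4 without HPβCD infarct 1. In the remaining fits it called 0 genes of any kind, so no list could hold a call there.

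Vehicle infarct 3 was the highest of all 8 libraries in 19 of these identity genes, and HPβCD infarct 3 the highest of its group in 21. *Glul* and *Sparcl1* were among the most abundant. *Glul*, the glutamine synthetase that takes over the glutamate imported by *Slc1a2* and *Slc1a3*, was at 832, 923, 1707 and 887 CPM against 765, 809, 1170 and 1101 CPM, which overlapped (log2 fold change -0.18, edgeR adjusted p = 0.723). *Sparcl1*, a secreted synapse-promoting protein, had a log2 fold change of -1.11 (edgeR adjusted p = 0.142). *Gjb6*, connexin 30, differed by 0.01 on the log2 scale, with 386 ± 97.6 CPM against 388 ± 138 CPM after HPβCD (SD, n = 4 in both).

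**Figure D4:**
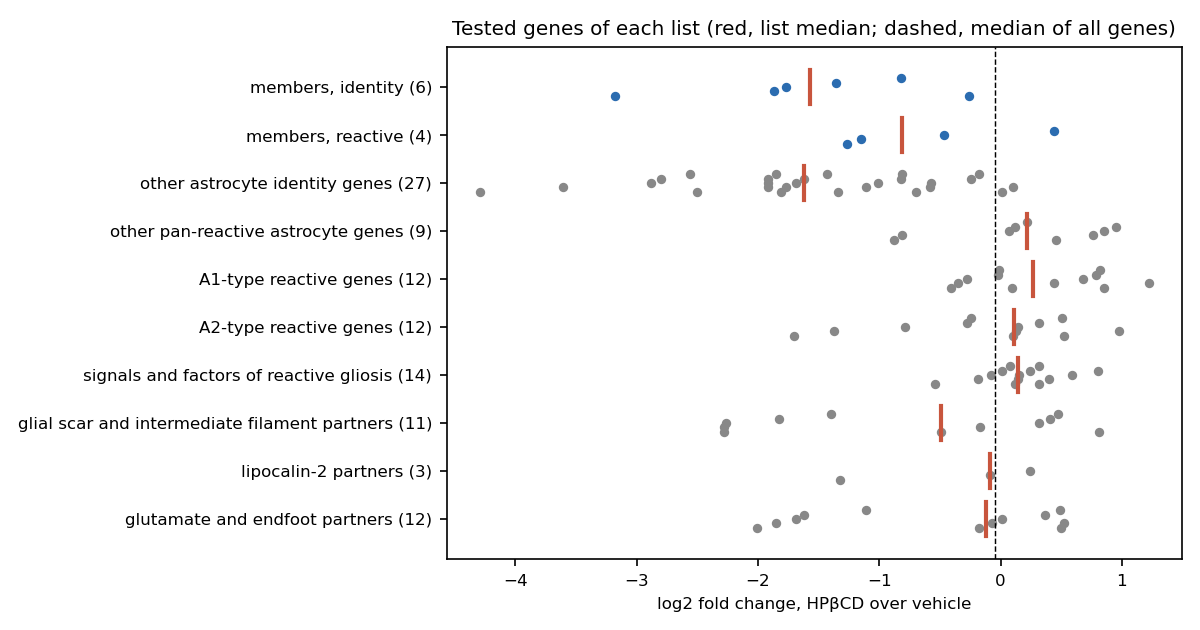
Log2 fold change of HPβCD over vehicle for every tested gene (point) of the members and of 8 further lists, the number tested in parentheses, with the list median (red line) and the median of all genes, -0.05 (dashed line). The identity lists lie mostly below 0 (medians -1.57 and -1.62), and the other reactive lists lie around it (medians 0.11 to 0.27).

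Other genes described as reactive in astrocytes had both directions. Of 9 further pan-reactive genes, 7 had higher and 2 lower levels in HPβCD infarcts (median 0.22), and none passed edgeR. At an unadjusted p under 0.05, 3 were higher, as were 11.8% of all tested genes, and 1 was lower. DESeq2 called 2 higher, against 5.92% of all genes it tested. The most abundant were *Cp*, the ferroxidase ceruloplasmin (log2 fold change 0.46), *Cd44*, a hyaluronan receptor (0.07), and *Osmr*, the oncostatin M receptor (0.22), with edgeR adjusted p from 0.308 to 0.912. The groups did not overlap in 2, both higher, as in 8.77% of all tested genes in that direction. They are named after their values were seen: *Timp1*, a metalloprotease inhibitor (log2 fold change 0.76), and *Hspb1*, a small heat shock protein (0.85). Vehicle infarct 3 was the lowest of its group in 7 of the 9. Many of these genes are also made by macrophages and fibroblasts, whose marker sums were higher in HPβCD infarcts, and the part of those cells was not tested. Without vehicle infarcts 1 and 3 the median was -0.03.

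The 12 genes of the A1-type pattern, one described after inflammatory stimuli, had a median log2 fold change of 0.27. None passed edgeR, while 5 were higher at an unadjusted p under 0.05 (11.8% of all tested genes) and 3 were called higher by DESeq2 (5.92%). The median was 0.34 without vehicle infarcts 1 and 3. In 4 of them, all higher, the groups did not overlap, as in 8.77% of all tested genes in that direction. *Serping1*, the C1 inhibitor, was at 420, 717, 510 and 636 CPM in vehicle infarcts and 1232, 1134, 2070 and 898 CPM after HPβCD (log2 fold change 1.22, SE 0.29; edgeR adjusted p = 0.0624). The class I antigen gene *H2-D1* (0.79; adjusted p = 0.0783) and complement *C3* (0.82; adjusted p = 0.165) were also higher by edgeR without passing. *C3* was at 3169 CPM in HPβCD infarct 3 and between 724 and 1999 CPM in the other 7 libraries. These genes are abundant in macrophages and fibroblasts as well.

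The 12 genes of the A2-type pattern, one described after ischemia, had a median of 0.11, or -0.05 without vehicle infarcts 1 and 3, and none passed edgeR. At an unadjusted p under 0.05, 1 was higher and 2 were lower (11.8% and 16.0% of all tested genes), and DESeq2 called 1 lower (11.1%). The most abundant were *Tm4sf1*, *Emp1* and *Cd109*, membrane proteins, with log2 fold changes of 0.51, 0.52 and 0.32 and edgeR adjusted p from 0.235 to 0.658. Of 16 signals and factors of gliosis, 14 were tested and none passed edgeR (median 0.14, or 0.07 without vehicle infarcts 1 and 3). Of these, 2 were higher at an unadjusted p under 0.05 (11.8% of all tested genes) and 1 was called higher by DESeq2 (5.92%). *Il6st*, the receptor subunit through which interleukin-6 family cytokines reach STAT3, was at 846, 1248, 619 and 1241 CPM in vehicle infarcts and 1562, 1607, 1340 and 1453 CPM after HPβCD (log2 fold change 0.59, edgeR adjusted p = 0.156). It was the only gene of this list whose groups did not overlap, as in 8.77% of all tested genes in the higher direction. The kinase gene *Jak1* and the glial factor gene *Nfia* had log2 fold changes of 0.12 and 0.24.

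Among 11 genes of the glial scar and of filament partners, the median was -0.49, or -0.55 without vehicle infarcts 1 and 3, and none passed edgeR. DESeq2 called 5 lower (11.1% of all genes it tested), and at an unadjusted p under 0.05, 5 were lower and 2 higher (16.0% and 11.8% of all tested genes). The most abundant, *Thbs1* (thrombospondin 1), *Plec* (plectin) and *Synm* (synemin), had log2 fold changes of 0.81, 0.47 and 0.32 and did not pass edgeR (adjusted p from 0.110 to 0.482). The groups did not overlap in 3 proteoglycan genes, all lower, as in 8.03% of all tested genes in that direction. These 3 are named for that reason after their values were seen. They were *Ptprz1* (log2 fold change -2.26, edgeR adjusted p = 0.0545), *Ncan* (-2.28, adjusted p = 0.0725) and *Acan* (-1.40, adjusted p = 0.120). The gap was narrow for *Ncan* (25.7 against 22.8 CPM) and for *Acan* (5.02 against 4.83 CPM), a gene of low level. *Ptprz1* and *Ncan* were highest in vehicle infarcts 3 and 1, the libraries with neuron transcripts. *Acan* was highest in vehicle infarct 1, and vehicle infarct 3 was the lowest of its group.

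Of 12 glutamate and endfoot partners, 1 passed edgeR, and it was lower, as were 0.774% of all tested genes. *Dtna*, which codes for a dystrophin-complex protein that helps to hold *Aqp4* protein at endfeet, was at 84.3, 31.0, 102 and 46.7 CPM in vehicle infarcts and 10.7, 13.2, 21.5 and 20.3 CPM after HPβCD. It fell by 2.01 on the log2 scale (edgeR adjusted p = 0.0499, SE 0.40), and it was highest in vehicle infarct 3. The number called in this list was 3 without vehicle infarct 2 and 0 without any other single library. Over all genes, edgeR called 556 without vehicle infarct 2, 629 without vehicle infarct 3 and 353 without HPβCD infarct 4. It called 4 without HPβCD infarct 1 and 0 in the remaining fits, where no list could hold a call. At an unadjusted p under 0.05, 5 of the list were lower and 2 higher (16.0% and 11.8% of all tested genes). DESeq2 called 4 lower and 1 higher (11.1% and 5.92% of all genes it tested). The groups did not overlap in 3 lower genes and 1 higher gene (8.03% and 8.77% of all tested genes). *Dag1*, the dystroglycan that binds this complex to the basement membrane, was higher in HPβCD infarcts without overlap (log2 fold change 0.52, edgeR adjusted p = 0.105). The list shares *Glul*, *Gjb6*, *Kcnj10*, *Mlc1* and *Hepacam* with the identity genes, and its median was -0.12, or -0.11 without vehicle infarcts 1 and 3. The *Lcn2* receptor genes *Slc22a17* and *Lrp2* and its partner *Mmp9* had log2 fold changes of -1.32, 0.24 and -0.09, with edgeR adjusted p from 0.222 to 0.946. Their median was -0.09, or 0.26 without vehicle infarcts 1 and 3 and -1.04 without HPβCD infarct 1.

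Finally, the tested genes with levels most like those of single members were listed by Pearson's r of log2 CPM over the 8 libraries, as a description. For *Slc1a2* they were *Acsl3*, *Phyhipl*, *Aldoc*, *Myh14* and *Lix1* (r from 0.997 to 0.994). *Aldoc*, an astrocytic aldolase from the identity list, was at 355, 88.6, 752 and 139 CPM in vehicle infarcts and 16.5, 25.5, 130 and 53.5 CPM after HPβCD. For *Gfap* they were *Foxj1*, *Serpinf2*, *Adamts20*, *Sec14l5* and *Tppp3* (r from 0.989 to 0.972). *Foxj1*, the ciliogenesis factor of ependymal cells, was at 8.77, 3.07, 1.45 and 5.43 CPM in vehicle infarcts and 0.632, 0.797, 4.13 and 2.22 CPM after HPβCD, a low level throughout. For *Serpina3n* they were *A2m*, *Gldn*, *Tgm1*, *Slco1a5* and *Cd86* (r from 0.995 to 0.973), and *A2m*, another protease inhibitor of the acute phase, was at 258, 162, 23.7 and 272 CPM in vehicle infarcts and 35.1, 35.9, 116 and 98.2 CPM after HPβCD. For *Lcn2* they were *Fgd2*, *Pemt*, *Pdcd1*, *Padi2* and *Bco2* (r from 0.950 to 0.923). None of these 20 genes passed edgeR, the lowest adjusted p being 0.0775 for *Acsl3*.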

How the data were processed

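RNA from 8 infarcts was sequenced as strand-specific polyadenylated libraries. According to the methods and the submitters' processing notes, the authors demultiplexed with bcl2fastq 2.19, trimmed with Trimmomatic 0.32, aligned to GRCm38 with STAR 2.5.2b and counted with HTSeq. The strand option and annotation release are not given in the sources used here. The deposited values are raw counts per gene, 1 table per library. The 5 lines for reads assigned to no gene (26.6% to 36.6%) were left out.

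Symbols matched 45143 of 46078 identifiers, and coordinates and exon lengths come from GENCODE M21. Counts were tested with edgeR 4.0.16 in R 4.3.3 (robust quasi-likelihood, TMM, filterByExpr, no covariate), called at an adjusted p under 0.05. Each SE is the log2 fold change divided by the square root of F. DESeq2 1.42.0 and limma 3.58.1 were alternatives. The steps were tested on simulated data. Log2 CPM used a prior count of 2.

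Members and lists were chosen with earlier results of these data known. Named were all members, and from each further astrocyte list the 3 most abundant genes (1 is not reported here) and any gene called, plus the 5 genes most like *Gfap*, *Slc1a2*, *Lcn2* and *Serpina3n*. Promoter sequences are from RefSeq (GRCm38.p6).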

Additional observations from a re-analysis of the deposited data

Results flagged for a closer look

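Of 58 groups of 4 values examined for a value far from the others, 2 held one, where chance gives about 2.9. The log2 ratio of *Serpina3n* per *Gfap* was -2.27 in HPβCD infarct 3, while the other HPβCD infarcts lay between -1.52 and -1.45. The log2 of the summed ependyma and choroid plexus markers was 3.88 in vehicle infarct 1, against 3.42 to 3.45 in the other vehicle infarcts, and it rests on few counts.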

How the results depend on the processing

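Beside the fits in the report, 17 alternatives were run. None changed the direction of any of the 10 members. The number of members called was 4 with DESeq2 (identity genes only), 8 with limma-voom with quality weights (all except *Gja1* and *Vim*), and 0 to 1 when single libraries were left out. Over all genes, 287 were called by edgeR, 2899 by DESeq2, 3232 by limma-voom, 98 without robust estimation, 11 with library totals only and 0 to 629 with single libraries left out. Without vehicle infarcts 1 and 3, edgeR called 202 genes and DESeq2, an alternative added after seeing the data, 1239, and neither called a member. The median difference between identity and reactive genes was -0.04 with limma-voom, which weights libraries unequally, and between -0.95 and -0.15 in the other alternatives with all members. It was -1.21 without *Lcn2* and *Serpina3n*.

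With the replicate number as a block, edgeR called 9 genes and 0 members. The labels do not tie same-numbered infarcts together, and the numbers were not taken as pairs. Correlations of their deviations from the group means were -0.26, 0.24, 0.33 and 0.10, and not every infarct correlated best with its own number.

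Every member had at least 233 counts in every library, and each group had 4 libraries. The adjusted p-values of *Fgfr3* and *Dtna* lie at the threshold.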
